A study of Mus musculus with 2 samples.

Results

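The complement genes described here are 9 of the 31053 genes counted in 2 single-cell libraries of mouse glioma, chosen by symbol for their roles. They are the 3 chains of C1q (C1qa, C1qb and C1qc), the central components C4b and C3, the alternative pathway proteins factor B (Cfb) and properdin (Cfp), and the anaphylatoxin receptors C3ar1 and C5ar1. C57BL/6 mice that were wild type for CD169-DTR (WT) or carried it on 1 allele (CD169-DTR, heterozygous) received an intracranial injection of 100000 cells of GL261, a line of mouse glioma cells. CD169-DTR places the receptor for diphtheria toxin (DT) under Siglec1, the gene that encodes CD169, so any cell that expresses CD169 can be killed by DT. DT was given to both groups, 1 day before and again 4 days after the injection of tumor cells. Both libraries described here are therefore from tumors of DT-treated mice. At 10 days post-inoculation (dpi), live cells positive for CD45.2 were sorted from the right hemisphere. The 3 mice of a group were pooled into 1 droplet library, so there are 2 libraries in all. The methods give male mice of 8 to 12 weeks for GL261 tumors.

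Complement is a cascade of plasma and tissue proteins. C1q binds immune complexes, dying cells and synapses and starts the classical pathway, in which C4 and then C3 are cleaved. Fragments of C3 stay on surfaces, where phagocytes bind them, while factor B, stabilised by properdin, amplifies C3 cleavage in the alternative pathway. The small fragments C3a and C5a signal through C3ar1 and C5ar1. In the brain, C1q is made mostly by microglia, the resident macrophages, and macrophages that arise from blood monocytes can also make it.

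All 9 genes lie on the minus strand of their chromosomes (annotation of GRCm38, the build that the labels name as mm10). C1qa (chr4:136895917-136898803), C1qc (chr4:136889804-136893065) and C1qb (chr4:136880129-136886187) are neighbours, with 2851 bases between C1qa and C1qc and 3616 between C1qc and C1qb. C4b (chr17:34728380-34743882) and Cfb (chr17:34856374-34862518) lie 112491 bases apart, and C3 (chr17:57203970-57228136) lies elsewhere on the same chromosome. Cfp lies at chrX:20925454-20931555, C3ar1 at chr6:122847138-122856161 and C5ar1 at chr7:16246743-16259540. All are protein-coding. Reads of C4b cannot always be told from those of its near-identical neighbour C4a, which was not analysed here, so the values of C4b are uncertain to that extent.

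The 250 bases before the RefSeq transcription start (GRCm38.p6) were searched on both strands for 5 short motifs, and 6 of the 9 genes had an entry among the 27025 promoters searched. The promoters of C1qb, C1qc and C3 are shown because they held the 3 matches found. They are printed from 5′ to 3′ on the strand of the gene, with the match in capitals. In C1qb (chr4:136886201-136886450, minus strand) the match to the PU.1 motif GAGGAA began 30 bases before the start. In C1qc (chr4:136892915-136893164, minus strand) the same motif matched on the other strand 193 bases before the start, and in C3 (chr17:57228137-57228386, minus strand) the C/EBP motif TTGCNNAA matched 45 bases before it.
C1qb: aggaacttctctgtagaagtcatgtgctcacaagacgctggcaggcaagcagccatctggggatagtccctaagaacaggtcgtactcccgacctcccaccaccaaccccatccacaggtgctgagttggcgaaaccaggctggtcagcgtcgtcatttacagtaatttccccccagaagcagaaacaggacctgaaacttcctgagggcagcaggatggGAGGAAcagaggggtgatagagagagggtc
C1qc: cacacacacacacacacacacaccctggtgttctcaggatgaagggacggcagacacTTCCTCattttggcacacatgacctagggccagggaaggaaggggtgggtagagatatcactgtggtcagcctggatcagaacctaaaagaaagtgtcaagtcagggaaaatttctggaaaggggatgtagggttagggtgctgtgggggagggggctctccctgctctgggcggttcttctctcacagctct
C3: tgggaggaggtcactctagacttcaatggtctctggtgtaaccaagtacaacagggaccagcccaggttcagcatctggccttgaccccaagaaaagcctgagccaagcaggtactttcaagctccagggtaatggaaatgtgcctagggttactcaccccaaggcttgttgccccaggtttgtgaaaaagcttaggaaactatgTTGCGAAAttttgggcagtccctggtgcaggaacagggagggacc
Matches of this kind are frequent. GAGGAA was found in 23.1% of all promoters and TTGCNNAA in 9.55%. The interferon-stimulated response element (3.04% of promoters), the STAT motif TTCNNNGAA (7.18%) and the NF-kB motif (0.94%) had no match in these windows of the 6 genes. A match is a description of letters and not of a bound site.

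The WT library held 101808996 unique molecular identifiers (UMIs, counted once per captured RNA molecule) and the CD169-DTR library 84065489. Barcodes with at least 1000 UMIs, of which at most 17% were mitochondrial, were taken as cells, which left 10107 cells in WT (median 7776 UMIs) and 7604 in CD169-DTR (median 8099.5 UMIs). The libraries shared 21 barcodes. Clusters were named from marker genes, with the complement genes left out of the features used to cluster. Microglia-like cells made up 46.9% of WT (4738 cells) and 70.8% of CD169-DTR cells (5384), and macrophage-like cells, with monocyte genes such as Ly6c2 and Chil3, numbered 1168 and 395. A cluster led by Gpnmb and Ms4a7 (1108 and 332 cells) was given no cell type name, since the border macrophage marker Lyve1 was at 0 in both libraries and Cd163 at 0.641 and 0.366 counts per 1000000 UMIs of the cluster (CPM). Despite the CD45.2 sort, 681 endothelial-like, 327 choroid plexus-like and 88 mural-like cells were present. Siglec1 in macrophage-like cells stood at 27.3 CPM in WT and 12.2 CPM in CD169-DTR. It stood at 19.0 and 5.62 CPM in microglia-like cells, at 52.0 and 11.4 CPM in the Gpnmb Ms4a7 cluster and at 7.47 and 3.49 CPM in dendritic cell-like cells. The targeted gene was thus lower but still present in the CD169-DTR library in each of these classes, microglia-like cells among them.

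Each group is 1 library, so no difference between the groups has a replicate check, and differences between mice are unknown. Values in parentheses after a level (exact Poisson), a share (exact Clopper-Pearson) or a ratio (exact conditional) are 95% intervals for counting error alone. To give shares of cells with a UMI, each cell was thinned to 4500 UMIs, with shallower cells left out.

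Free RNA matters for genes as abundant as C1q, because RNA free in the cell suspension enters every droplet. From microglial marker UMIs in lymphocytes it came to 163 UMIs per droplet in WT (2.09% of a median cell) and 103 in CD169-DTR (1.27%). T-like cells do not make C1q, yet 42.7% of WT and 38.3% of CD169-DTR T-like cells had a C1qa UMI after thinning, where the median T-like cell held 6540 (WT) or 6642 (CD169-DTR) UMIs before thinning. A share at or below that of T-like cells is therefore read as background. Background in this sense is wider than the free RNA estimate. Most microglial UMIs in lymphocytes came from few cells. The 68 of 877 WT and 20 of 427 CD169-DTR lymphocytes with at least 30 microglial marker UMIs held 89.1% and 84.8% of all such UMIs, while the median lymphocyte had 2.

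C1q was highest in microglia-like cells. C1qa, the A chain, reached 13672.5 CPM in WT and 11899.3 CPM in CD169-DTR microglia-like cells. C1qb reached 13053.3 and 11811.4 CPM and C1qc 9343.68 and 8775.27 CPM. Almost every microglia-like cell carried the chains, with a C1qa UMI in 99.95% and 99.9% of them after thinning. Of all UMIs in cells of both libraries, microglia-like cells held 91.7% for C1qa, 89.4% for C1qb and 91.5% for C1qc.

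**Figure D1:**
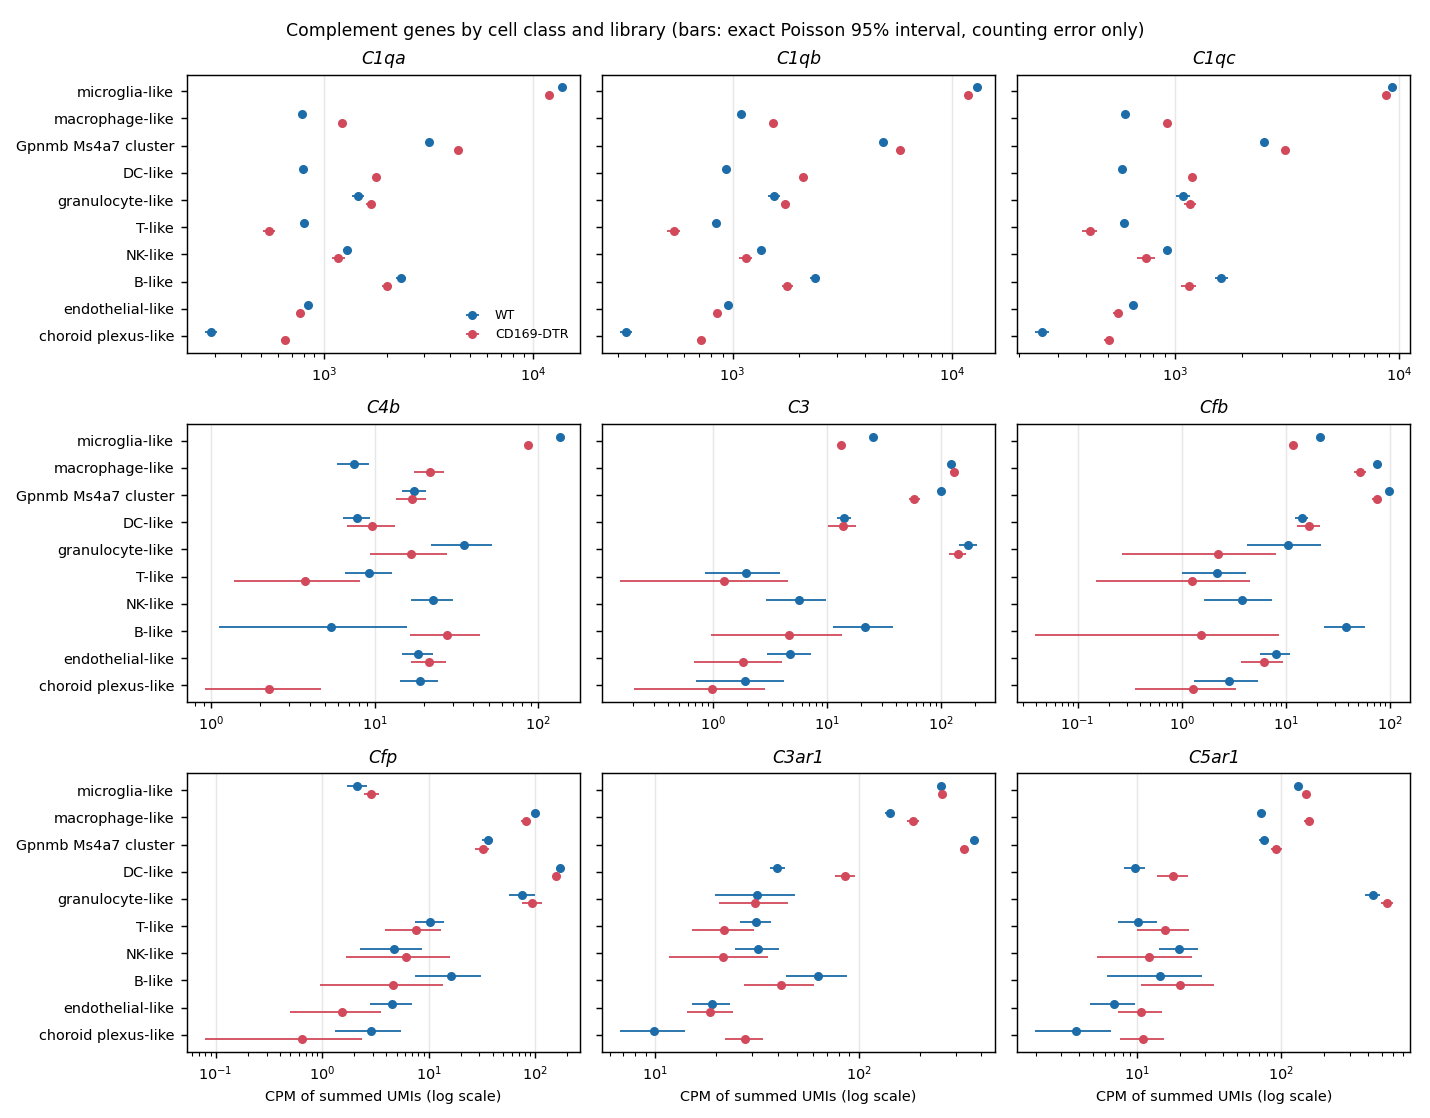
Level of each of the 9 complement genes in 10 cell classes, in CPM of the summed UMIs of a class on a log axis, with WT in blue, CD169-DTR in red and bars for the exact Poisson 95% interval; classes with no UMI (C4b, C3 and Cfb in CD169-DTR NK-like cells) have no point. The 3 C1q chains and C4b are highest in microglia-like cells, C3 and C5ar1 in granulocyte-like cells, Cfb and C3ar1 in the Gpnmb Ms4a7 cluster and Cfp in DC-like cells.

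The Gpnmb Ms4a7 cluster came next. C1qa there stood at 3161 CPM in WT and 4373 CPM in CD169-DTR, C1qb at 4880 and 5780 CPM, and C1qc at 2486 and 3104 CPM. Macrophage-like cells had lower levels, 786 and 1212 CPM of C1qa, 1089 and 1528 CPM of C1qb and 597 and 921 CPM of C1qc. For comparison, T-like cells had 804 and 545 CPM of C1qa, 837 and 539 CPM of C1qb and 594 and 416 CPM of C1qc. B-like cells (2335 and 1996 CPM) and granulocyte-like cells (1456 and 1674 CPM) had more C1qa than macrophage-like cells in both libraries. The share of macrophage-like cells with a C1qa UMI was 40.9% in WT, below the 42.7% of T-like cells, and 50.1% in CD169-DTR, above the 38.3% of T-like cells. For C1qb the shares were 51.6% and 56.7% (T-like 47.4% and 50.3%), and for C1qc 41.5% and 55.9% (T-like 33.3% and 32.0%). In WT macrophage-like cells, C1qa detection was thus at background, the interval of C1qb overlapped that of T-like cells, and that of C1qc (38.4 to 44.5%) lay just above theirs (28.5 to 38.4%).

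The number of C1q UMIs per cell separated classes better than detection did. With the 3 chains added and each cell thinned to 4500 UMIs, the median microglia-like cell had 160 C1q UMIs in WT and 147 in CD169-DTR, with 10th to 90th percentiles of 103 to 223 and 89 to 203. The median was 35 and 48 in the Gpnmb Ms4a7 cluster, 1 and 2 in macrophage-like cells, 1 and 2 in dendritic cell-like (DC-like) cells and 1 in T-like cells of both libraries. Macrophage-like cells had a long upper tail, with a 90th percentile of 27 in WT and 49.2 in CD169-DTR.

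**Figure D2:**
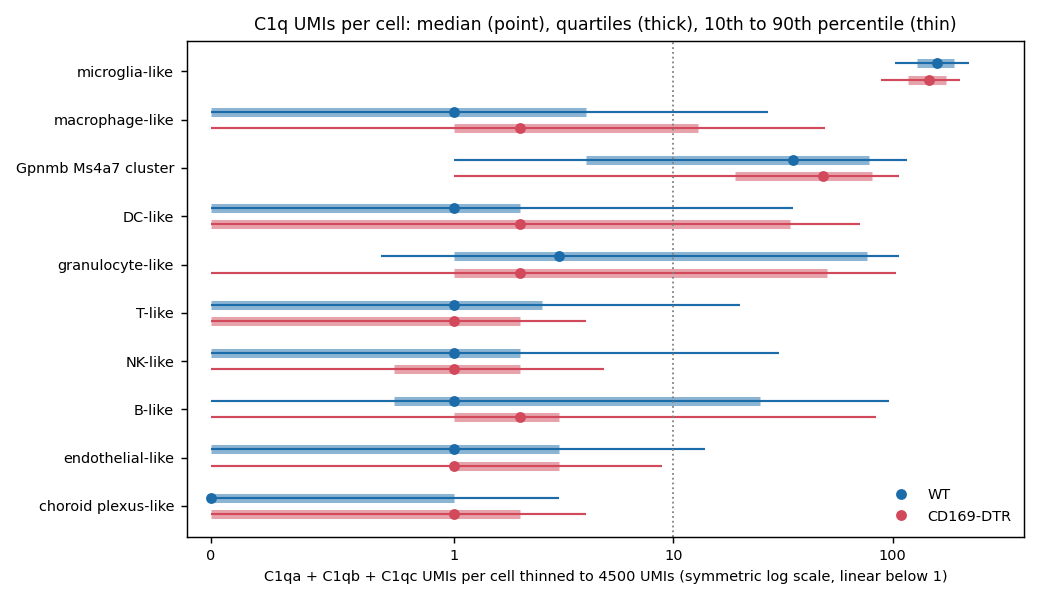
C1qa, C1qb and C1qc UMIs added per cell after thinning to 4500 UMIs, by class and library; points are medians, thick bars quartiles and thin bars the 10th to 90th percentile, on a symmetric log axis that is linear below 1, with a dotted line at 10 UMIs. Microglia-like cells have 10th percentiles of 103 and 89 UMIs, the Gpnmb Ms4a7 cluster has medians of 35 and 48, and macrophage-like, DC-like and T-like cells have medians of 1 or 2.

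To look at this tail, cells were split at 10 C1q UMIs, a value chosen after the distributions were seen. Among macrophage-like cells, at least 10 were present in 17.9% for WT (15.6 to 20.4%) and 26.9% for CD169-DTR (22.3 to 31.9%), against 11.8% and 5.14% of T-like cells. DC-like cells had 15% (12.9 to 17.4%) and 34.1% (27.9 to 40.6%), and the Gpnmb Ms4a7 cluster 68.8% and 80.1%. The classes are ranges of a score here, and 113 of 1032 WT and 38 of 349 CD169-DTR macrophage-like cells lay near the limit, between 5 and 20 C1q UMIs.

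T-like cells with C1q also carried other microglial RNA, with a median of 38 microglial marker UMIs in WT and 51 in CD169-DTR among those with at least 10 C1q UMIs. In macrophage-like cells with as much C1q the median was 4 and 8, and in the Gpnmb Ms4a7 cluster 5 and 8. Counting only cells with fewer than 15 microglial marker UMIs, at least 10 C1q UMIs were found in 13.1% of macrophage-like cells in WT (11.1 to 15.3%, 135 cells) and 17.2% in CD169-DTR (13.4 to 21.6%, 60 cells). The same share was 2.75% and 0.571% in T-like cells, 8.67% and 23.6% in DC-like cells, and 53.8% and 61.9% in the Gpnmb Ms4a7 cluster. The share of macrophage-like cells with C1q RNA and few microglial marker UMIs was thus above that of T-like cells in both libraries. However, macrophage-like cells with at least 10 C1q UMIs, taken without the limit on markers, had more marker UMIs (median 4 and 8) than the rest of their class (median 2 in both libraries).

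The C1q-bearing macrophage-like cells with few microglial markers differed from the rest of their class in other complement genes. C3ar1 stood at 347 against 112 CPM in WT (log2 ratio 1.64, 1.39 to 1.88) and at 319 against 137 CPM in CD169-DTR (1.22, 0.82 to 1.61). Cfp went the other way, at 64.2 against 109.8 CPM in WT (log2 ratio −0.77) and 59.3 against 83.4 CPM in CD169-DTR (−0.49, with an interval that includes 0). C3 had log2 ratios of −0.32 and −1.00, the first with an interval that includes 0. Apoe, a lipid carrier of tissue macrophages, was higher in the C1q-bearing cells (1.42 and 1.2), as was Ms4a7 (2.03 and 2.10).

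In DC-like cells the same split separated cells of a different kind. The split had 91 C1q-bearing and 892 other cells in WT and 54 and 151 in CD169-DTR. The C1q-bearing cells had less Flt3, the growth factor receptor of dendritic cells (log2 ratios of −2.21 in WT and −4.63 in CD169-DTR). Cd209a stood at 100 against 349 CPM in WT (−1.80) and at 0 against 406 CPM in CD169-DTR. The C1q-bearing cells had more Ms4a7 (3.87 and 4.15), Apoe (4.92 and 4.24), Cfb (3.00 and 2.90) and C3ar1 (3.88 and 1.96). So C1q in the DC-like clusters sat in cells with less Flt3 and Cd209a and more Apoe and Ms4a7. Other genes of the same split were mixed. Adgre1 (2.53 and 2.59) and Ccr2 (0.46 and 0.58) were higher, and Ly6c2 had 0.62 and −0.41. Mrc1 had 0.94 and −1.15, both with intervals that include 0, and H2-Aa, an antigen presentation gene, had 0.01 and −0.21.

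The ratio of C1qb to C1qa UMIs does not depend on depth. It was 0.955 in WT and 0.993 in CD169-DTR microglia-like cells, and ranged from 0.861 to 1.137 over the microglial states of both libraries. In the Gpnmb Ms4a7 cluster it was 1.54 (1.52 to 1.57) and 1.32 (1.30 to 1.34), outside that range in both libraries. Macrophage-like cells had 1.39 and 1.26. T-like cells had 1.04 and 0.989, within the microglial range, while barcodes of 10 to 100 UMIs, which hold mostly free RNA, had 1.26 and 1.31.

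C4b, the next component of the classical pathway, was also highest in microglia-like cells, at 136 CPM (133 to 140) in WT and 86.3 CPM (83.8 to 88.9) in CD169-DTR, and 28.3% and 20.2% of these cells had a UMI. They held 87.5% of all C4b UMIs. Macrophage-like cells had 7.45 CPM (5.90 to 9.27, 80 UMIs) in WT and 21.7 CPM (17.5 to 26.6, 92 UMIs) in CD169-DTR, against 9.26 and 3.76 CPM in T-like cells. The share of macrophage-like cells with a C4b UMI was 1.84% (1.11 to 2.86%) in WT, below the 2.48% of T-like cells, and 5.73% (3.54 to 8.71%) in CD169-DTR, above the 1.14% of T-like cells. C4b detection in macrophage-like cells was therefore at the level of T-like cells in WT. The free RNA estimate came to 16.3% of the C4b UMIs of macrophage-like cells in WT and 3.29% in CD169-DTR. Mural-like cells, the next highest class, had 36.1 CPM with both libraries pooled.

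C3, on which all pathways converge, had another distribution. Granulocyte-like cells had 173 CPM (143 to 208) in WT and 140 CPM (117 to 167) in CD169-DTR, and macrophage-like cells had 122 CPM (115 to 129) and 130 CPM (120 to 142). The classes overlapped in their intervals in CD169-DTR but not in WT. A C3 UMI was found in 34.8% and 36.7% of macrophage-like cells (51.7% and 52.7% before thinning), against 0.28% of WT and 0% of CD169-DTR T-like cells. Microglia-like cells had 25.3 CPM (23.9 to 26.9) and 13.1 CPM (12.2 to 14.1), with a UMI in 7.05% and 4.07%. Because they were so many, microglia-like cells still held 33.1% of all C3 UMIs, close to the 34.8% of macrophage-like cells and above the 20.4% of the Gpnmb Ms4a7 cluster. The granulocyte-like cells were shallow, with medians of 2924 and 3629 UMIs, so that 28 and 52 of them remained after thinning.

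Cfb, the protease of the alternative pathway C3 convertase, was highest in the Gpnmb Ms4a7 cluster (99.4 CPM, 92.6 to 107, in WT and 75.3 CPM in CD169-DTR). Macrophage-like cells followed at 76.3 CPM (71.2 to 81.7) and 51.6 CPM (45 to 58.9), with a UMI in 23.4% and 16.0% of them. Microglia-like cells had 21.5 CPM (20.2 to 22.9) and 11.7 CPM (10.8 to 12.6), above the 2.19 and 1.25 CPM of T-like cells. Microglia-like cells held 36.7% of the Cfb UMIs, the Gpnmb Ms4a7 cluster 28.4% and macrophage-like cells 24.9%. The order of the Gpnmb Ms4a7 cluster and the macrophage-like cells turned with cluster resolution 0.5 or 2 and with libraries merged without integration.

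Cfp, which stabilises that convertase, was highest in DC-like cells, with macrophage-like, granulocyte-like and plasmacytoid dendritic cell-like (pDC-like) cells next. DC-like cells had 172 CPM (165 to 179) in WT and 158 CPM (146 to 171) in CD169-DTR, and 36.4% and 38.4% of them had a UMI. The Cd209a DC-like cluster had 239 and 190 CPM. Macrophage-like cells had 99.5 and 82.4 CPM, granulocyte-like cells 75.9 and 93.3 CPM and the Gpnmb Ms4a7 cluster 35.8 and 32.0 CPM. The pDC-like cells had 75.1 CPM in WT (102 cells) and 88.5 CPM in CD169-DTR (11 cells). Microglia-like cells had 2.14 and 2.90 CPM, below T-like cells (10.2 and 7.52 CPM, the latter with 9 of 12 UMIs in 1 cell). A UMI was found in 0.683% and 0.768% of microglia-like and 1.38% and 0.571% of T-like cells, with overlapping intervals. Cfp detection in microglia-like cells was thus not distinguishable from that in T-like cells at this depth. The free RNA estimate came to 33.2% of the Cfp UMIs of microglia-like cells in WT and 6.04% in CD169-DTR. DC-like cells held 54.7% of all Cfp UMIs and microglia-like cells 4.42%.

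C3ar1, the receptor for C3a, was found in the Gpnmb Ms4a7 cluster, microglia-like cells and macrophage-like cells. The Gpnmb Ms4a7 cluster had 369 CPM (356 to 383) in WT and 330 CPM in CD169-DTR, with a UMI in 71.5% and 73.8% of cells. Microglia-like cells had 254 and 256 CPM (58.5% and 57.1% of cells) and macrophage-like cells 142 and 185 CPM (30.9% and 38.4%). All were above T-like cells, which had 31.2 and 21.9 CPM. The 2 libraries put the Gpnmb Ms4a7 cluster, microglia-like cells and macrophage-like cells in the same order.

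C5ar1, the receptor for C5a and a classical neutrophil receptor, was highest in granulocyte-like cells, at 434 CPM (385 to 487) in WT and 544 CPM (497 to 595) in CD169-DTR. Microglia-like cells had 132 and 149 CPM, with a UMI in 36.4% and 37.9%. In WT, macrophage-like cells had 73.1 CPM, below microglia-like cells, but in CD169-DTR they had 156 CPM, within the counting error of microglia-like cells. Their share of cells with a UMI was 19.8% and 36.4%. The Gpnmb Ms4a7 cluster had 76.8 and 93.0 CPM.

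With both libraries pooled, the highest class was microglia-like or macrophage-like for 4 of the 9 genes, and for 12.5% of all genes with enough UMIs. The 4 were the C1q chains and C4b, all in microglia-like cells. C3ar1 had its highest level in the Gpnmb Ms4a7 cluster at 353 CPM, followed by microglia-like cells at 255 CPM, and C3 in granulocyte-like cells at 154 CPM, followed by macrophage-like cells at 124 CPM. Cfb had 89.5 CPM in the Gpnmb Ms4a7 cluster and 69.3 CPM in macrophage-like cells. Cfp had 169 CPM in DC-like and 94.6 CPM in macrophage-like cells, and C5ar1 had 498 CPM in granulocyte-like and 141 CPM in microglia-like cells.

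Genes with the most similar pattern were ranked by Pearson's r of log2(CPM + 10) over 43 clusters of either library with at least 50 cells, which share 2 libraries and their free RNA. The pattern of C1qa was closest to C1qc (0.998), C1qb (0.995) and Trem2 (0.982), a microglial lipid receptor. C3 was closest to Vill (0.892), Igsf6 (0.889) and Lst1 (0.881), and Cfp to Alcam (0.926), Plbd1 (0.918) and Ifitm6 (0.90). C4b was closest to Chst1 (0.919), Masp1 (0.899), a protease of the lectin pathway, and Mmp2 (0.899). C3ar1 was closest to Rab3il1 (0.919), Lgmn (0.913) and Plau (0.912), and Cfb to Ccl7 (0.858), Mmp14 (0.836) and Fam20c (0.824). Across single microglia-like cells thinned to 1 depth, pairs of C1q chains had r of 0.724 to 0.785. C3 and Cfb, which act in the same convertase, had r of −0.00 and 0.05 in microglia-like cells, 0.13 and 0.01 in macrophage-like cells and 0.19 and 0.17 in the Gpnmb Ms4a7 cluster.

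Microglia-like cells fell into 8 clusters, each named by its marker genes as a state. They were homeostatic (cluster 0, with P2ry12, 1503 WT and 2148 CD169-DTR cells), Lpl Cst7 disease-associated (cluster 1), interferon-responding (cluster 4, with Rsad2 and Cxcl10, 635 and 489 cells), cytokine-high immediate-early (cluster 6, with Il1b and Atf3, 336 and 518 cells), Spp1 Igf1 tumor-reactive (cluster 10, 305 and 251 cells), S-phase (cluster 11) and mitotic (clusters 7 and 16). Each state was set against the other microglia-like cells of its library, and a gene was counted where it was past 1.5-fold the same way in both libraries. This held in at least 1 state for all 9 complement genes and for 61.9% of the genes tested. The states were found by clustering the same cells, so these values describe them and were not tested.

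The homeostatic state had little complement RNA besides C1q and the receptors. No complement gene was higher there (14.0% of genes tested were) and 5 were lower (13.4% of genes tested). C4b stood at 31.7 CPM in WT and 28.0 CPM in CD169-DTR, 0.20 and 0.26 times the level of the other microglia-like cells. C3 stood at 1.89 and 1.87 CPM, 0.06 and 0.11 times the level of the others, which is the level of T-like cells. Cfb stood at 2.6 and 1.34 CPM (0.10 and 0.09 times). C5ar1 was less far below, at 91.8 and 96.0 CPM (0.65 and 0.57 times), and the fifth gene was Cfp, which was below the level of T-like cells. The homeostatic cells were also shallower, with a median of 5659 UMIs, which CPM takes into account but detection does not.

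The interferon-responding state had the highest C4b, C3 and Cfb of all 8 states in both libraries. C4b reached 242 CPM in WT and 140 CPM in CD169-DTR, 2.01 and 1.73 times the other microglia-like cells. In CD169-DTR this was close to the 134 CPM of the disease-associated state, so the order of these 2 states for C4b is not firm there. C3 reached 56.1 and 30.5 CPM (2.72 and 2.66 times), and Cfb 45.6 and 28.5 CPM (2.56 and 2.83 times). These 3 of 9 genes were past the fold upwards, as were 4.65% of genes tested, and 1, Cfp, downwards, as were 9.5%. The Spp1 Igf1 state had the second highest C3 in WT, at 2.22 times the other cells, but 1.46 times in CD169-DTR, and the disease-associated state had 1.36 and 1.86 times the C4b of the others. Neither of these was past 1.5-fold in both libraries.

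**Figure D3:**
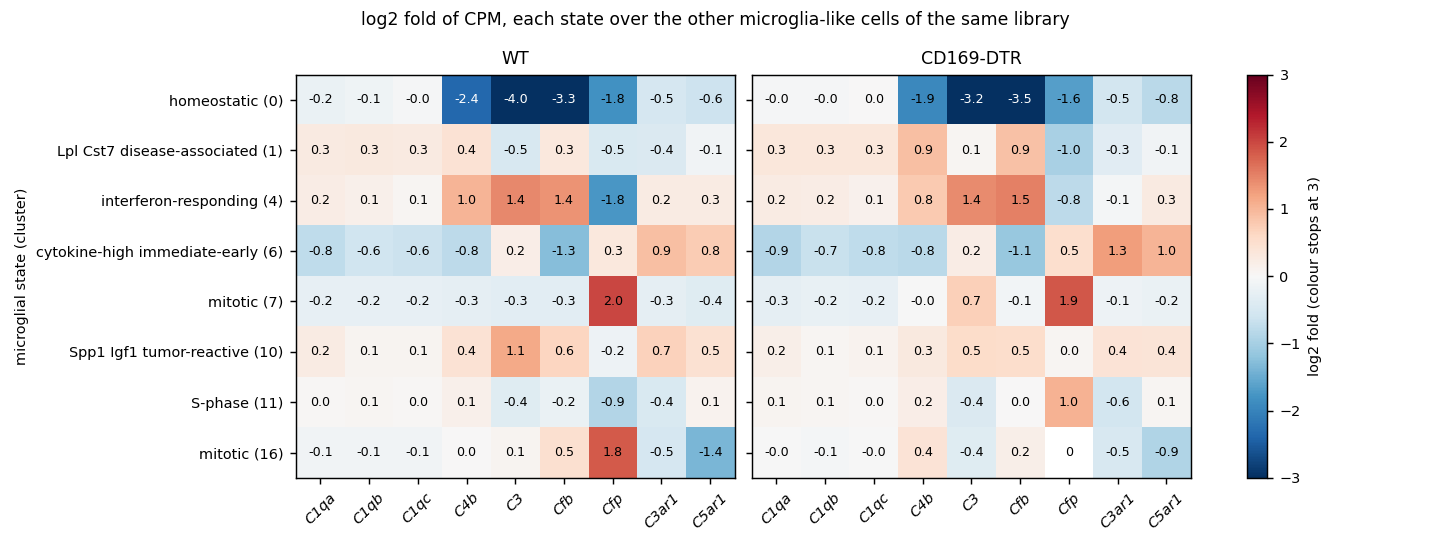
Log2 fold of each complement gene in each of 8 microglial states over the other microglia-like cells of the same library, as a heat map with 1 panel per library and a colour scale that stops at 3 in either direction; a 0 marks Cfp in cluster 16 of CD169-DTR, which had no UMI. C4b, C3 and Cfb are lowest in the homeostatic state and highest in the interferon-responding state, except C4b in CD169-DTR, whose fold is highest in the disease-associated state. C3ar1 and C5ar1 are highest in the cytokine-high immediate-early state while the C1q chains are lowest there.

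The cytokine-high immediate-early state had a different profile. The receptors C3ar1, at 440 CPM in WT and 532 CPM in CD169-DTR (1.86 and 2.40 times), and C5ar1, at 209 and 273 CPM (1.68 and 2.04 times), were higher, 2 of 9 genes against 8.69% of genes tested. All 3 C1q chains, C4b and Cfb were lower, 5 of 9 genes against 17.3%. C1qa stood at 8408 and 6836 CPM, 0.59 and 0.55 times the other microglia-like cells, and C4b at 0.58 and 0.57 times. Outside this state C1qa, C1qb and C1qc stayed between 0.83 and 1.27 times the level of the other cells.

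The dividing states had few differences. In mitotic cluster 7, Cfp stood at 6.19 and 7.81 CPM, 4.00 and 3.64 times the other microglia-like cells, which is near the level of T-like cells. It was the single gene past the fold there (12.9% of genes tested were higher and 6.89% lower), and S100a8 and S100a9, genes of granulocytes, were among the leading genes of that cluster. C5ar1 was lower in mitotic cluster 16, at 51.4 and 81.6 CPM (0.38 and 0.54 times), the single gene past the fold there (14.3% of genes tested were lower and 4.21% higher). No complement gene was past the fold in both libraries in the S-phase state (7.35% of genes tested were higher and 7.33% lower), the disease-associated state (0.304% and 9.31%) or the Spp1 Igf1 state (3.52% and 20.7%).

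To learn how complement expression differed once CD169-positive cells were depleted, WT was compared with CD169-DTR within each class. A log2 ratio of WT over CD169-DTR of at least 0.5 in size, in a gene with at least 20 UMIs, was counted as past the fold, which is a size and not a test. In microglia-like cells, 3 of the 9 genes were past the fold, all higher in WT, where 10.0% of all genes tested were past the fold, 4.65% higher in WT and 5.39% higher in CD169-DTR. C3 stood at 25.3 CPM in WT and 13.1 CPM in CD169-DTR (log2 ratio 0.95, 0.81 to 1.09). Cfb stood at 21.5 and 11.7 CPM (0.88, 0.73 to 1.03), and C4b at 136 and 86.3 CPM (0.66, 0.60 to 0.71). The median gene had a log2 ratio of −0.04.

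The other genes differed less. C1qa, C1qb and C1qc had log2 ratios of 0.20, 0.14 and 0.09, and C3ar1 of −0.01. C5ar1 was higher in CD169-DTR, at −0.18. Cfp, below the level of T-like cells, had −0.43 (−0.82 to −0.05). Markers of other cells moved beside these values. The summed level of 12 markers of monocyte-derived macrophages in microglia-like cells was 465 CPM in WT and 328 CPM in CD169-DTR, with 8 of 12 higher in WT, the same direction as C3 and Cfb, which macrophage-like cells also express. The sum of 8 granulocyte markers was 201 and 401 CPM, with 8 of 8 higher in CD169-DTR. The part of these markers in the results was not tested. C5ar1 is itself a gene of granulocytes.

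**Figure D4:**
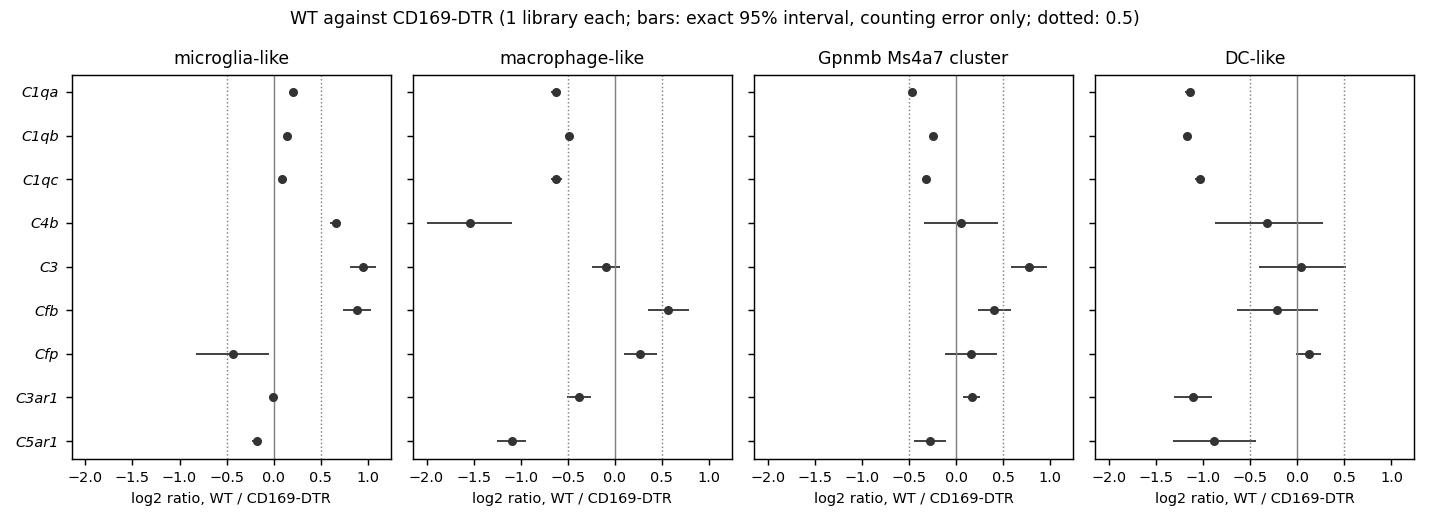
Log2 ratio of WT over CD169-DTR for the 9 complement genes in 4 classes, with exact 95% intervals that cover counting error only and dotted lines at −0.5 and 0.5. In microglia-like cells C4b, C3 and Cfb lie above 0.5, while in macrophage-like and DC-like cells C1qa and C1qc lie below −0.5.

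The mix of states differed between the libraries, so the same ratios were taken within each state. C4b was higher in WT in 8 of 8 states (log2 ratios of 0.18 to 0.78), as were C3 (0.02 to 1.44) and Cfb (0.48 to 1.18). The interval of C4b lay above 0 in 6 states, that of C3 in 6 and that of Cfb in 7. In the homeostatic state C3 rested on 16 UMIs in WT and 25 in CD169-DTR, and with free RNA subtracted its ratio was −0.89. The other state ratios of C4b, C3 and Cfb stayed above 0 with free RNA subtracted. Of the 8180 genes with enough UMIs in every state, 3.53% were higher in WT in all 8 and 3.74% were higher in CD169-DTR in all 8. With every state given equal weight, the log2 ratios were 0.55 for C4b, 0.91 for C3 and 0.77 for Cfb. The states come from the same 2 libraries and are not replicates.

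Among states, C3 differed most in the Spp1 Igf1 state, at 49.6 CPM in WT and 18.3 CPM in CD169-DTR (log2 ratio 1.44, 1.07 to 1.81). It had 0.88 (0.59 to 1.18) in the interferon-responding state, and 0.07 and 0.02 in mitotic cluster 7 and the homeostatic state, where the interval included 0. C4b had its highest ratio, 0.78, in both the interferon-responding (0.65 to 0.92) and Spp1 Igf1 states. C1qa was higher in WT in 8 of 8 states by small amounts (0.06 to 0.30), as were C1qb (0.08 to 0.19) and C1qc (0.01 to 0.19). C5ar1 was higher in CD169-DTR in 8 of 8 states (−0.67 to −0.06), and C3ar1 was higher in WT in 3 states and in CD169-DTR in 5 (−0.27 to 0.25).

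**Figure D5:**
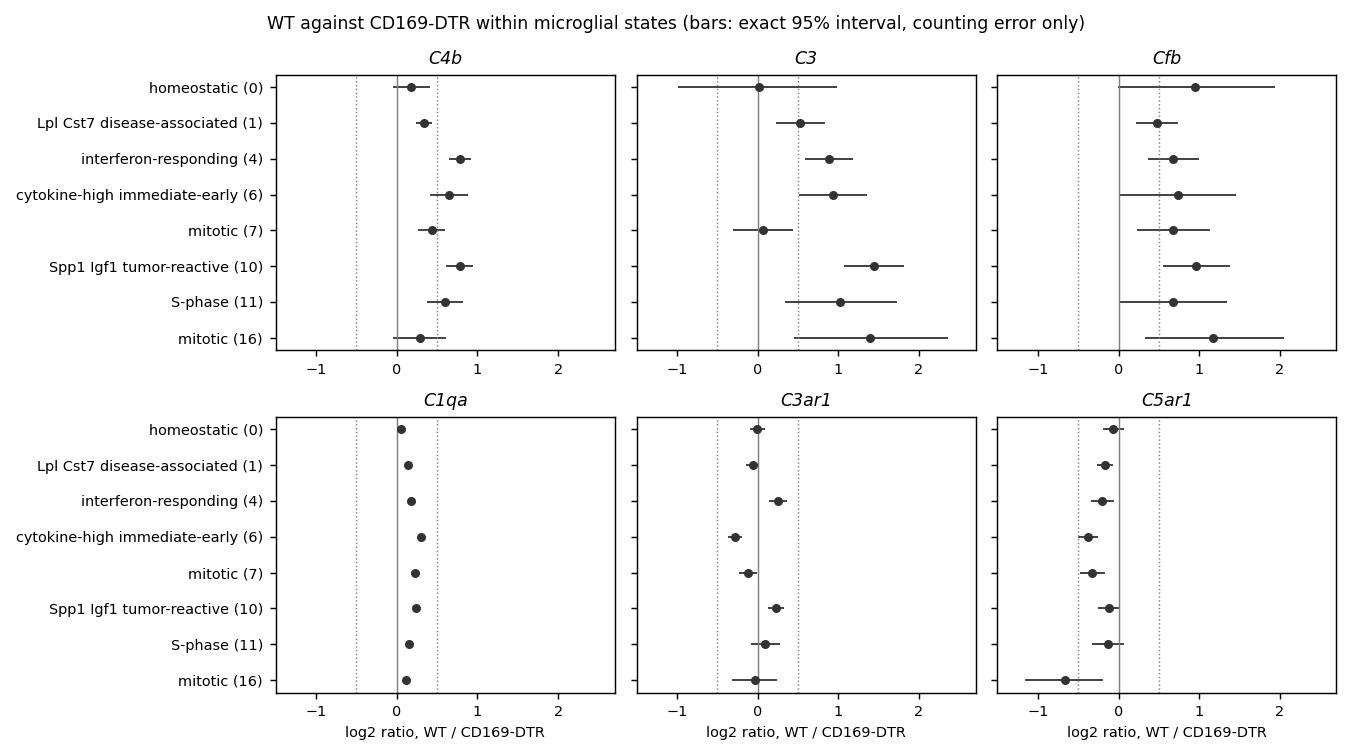
Log2 ratio of WT over CD169-DTR for C4b, C3, Cfb, C1qa, C3ar1 and C5ar1 within each of the 8 microglial states, with exact 95% intervals that cover counting error only and dotted lines at −0.5 and 0.5. Points for C4b, C3, Cfb and C1qa lie above 0 in all 8 states, those for C5ar1 below 0 in all 8, and those for C3ar1 on both sides.

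In macrophage-like cells, 5 of the 9 genes were past the fold, where 28.4% of all genes tested were, and the median gene had a log2 ratio of −0.20. Only Cfb was higher in WT (6.99% of genes tested), at 76.3 CPM against 51.6 CPM (log2 ratio 0.57, 0.35 to 0.79). The 4 higher in CD169-DTR (21.4% of genes tested) were C5ar1, at 73.1 CPM in WT and 156 CPM in CD169-DTR (−1.10, −1.25 to −0.95), C4b (−1.54, −1.99 to −1.09), C1qa (−0.63) and C1qc (−0.62). C1qb, at −0.49, was just inside the limit. The WT side of the C1qa and C1qc ratios lay at the level of T-like cells, with C1qa at 786 CPM (T-like 804 CPM) and C1qc at 597 CPM (T-like 594 CPM). C3, C3ar1 and Cfp had −0.10, −0.38 and 0.27.

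The makeup of the class differed between the libraries. The macrophage-like cells of WT were 984 of cluster 3, with Clec4e and Ly6c2, and 184 of cluster 14, with Ear2 and Treml4, and those of CD169-DTR were 252 and 143. C5ar1 was higher in CD169-DTR in both clusters (−1.27 and −1.13). So were C1qa (−0.62 and −1.48), C1qb (−0.58 and −1.01), C1qc (−0.62 and −1.44) and C3ar1 (−0.60 and −1.58). The ratios of C1qb and C3ar1 were larger in size in each cluster than over the class. Cfb was higher in WT in both, but below the fold in cluster 3 (0.32, 0.10 to 0.54), and its ratio of 0.77 in cluster 14 rested on 22 UMIs. Microglial markers moved beside C1q and C4b. The summed level of the 12 was 1924 CPM in WT and 2559 CPM in CD169-DTR macrophage-like cells, with 11 of 12 higher in CD169-DTR and none at 0. Their part in the C1q and C4b values was not tested.

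With the 5% of cells of highest doublet score left out of each library, the ratios of C1qa and C4b in macrophage-like cells were larger, at −1.27 and −2.11. Without cells that had a UMI of the T cell gene Cd3e or the microglial gene P2ry12, C1qa had −0.79. With median-ratio scaling, which sets the median gene near 0, or with libraries merged without integration, C1qa and C1qc were no longer past the fold, and 3 of 9 genes were (C5ar1, C4b and Cfb).

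In the Gpnmb Ms4a7 cluster, C3 alone was past the fold, at 99.3 CPM in WT and 58.0 CPM in CD169-DTR (log2 ratio 0.77, 0.58 to 0.97), where 28.1% of genes tested were past the fold, 22.1% higher in WT and 5.99% higher in CD169-DTR, and the median gene had 0.15. Cfb had 0.40, and C1qa, C1qb and C1qc had −0.47, −0.24 and −0.32. The median cell of this cluster was shallow in WT (4744.5 UMIs) and deep in CD169-DTR (16196 UMIs), and the monocyte gene Ly6c2 was at 1282 and 360 CPM, so the cells compared differed in depth and makeup.

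In DC-like cells, 5 of 9 genes were past the fold, all higher in CD169-DTR, where 23.3% of genes tested were past the fold and 12.3% were higher in CD169-DTR. C1qa stood at 798 CPM in WT and 1762 CPM in CD169-DTR (−1.14), C1qb at 933 and 2106 CPM (−1.17), C1qc at 578 and 1186 CPM (−1.04), C3ar1 at 39.9 and 85.9 CPM (−1.11) and C5ar1 at 9.75 and 18.0 CPM (−0.88). The C1q-bearing cells with few microglial markers were 8.67% of DC-like cells in WT (7.04 to 10.5%, 91 cells) and 23.6% in CD169-DTR (18.2 to 29.6%, 54 cells). Beside C1q, the 12 markers of border-associated macrophages summed to 206 and 475 CPM (9 of 12 higher in CD169-DTR) and those of microglia to 2175 and 2760 CPM (11 of 12 higher in CD169-DTR). The 12 markers of monocyte-derived macrophages went the other way, at 6181 and 4065 CPM (7 of 12 higher in WT), as did those of dendritic cells, at 1414 and 1041 CPM (9 of 12 higher in WT). Their part was not tested. Cfp, the complement gene of these cells, had 0.12.

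The rest of the complement system was taken from a list of 44 genes, of which 43 were in the files. In microglia-like cells 16 had at least 100 UMIs, and 4 were past the fold in WT, 0 in CD169-DTR and 12 in neither, where 4.65% of all genes were higher in WT and 5.39% in CD169-DTR. C2, the protease of the classical pathway, stood at 13.8 CPM in WT and 7.63 CPM in CD169-DTR (0.86), and Itgax, a chain of complement receptor 4, at 78.2 and 46.0 CPM (0.77). The others were Cd93 (0.73, 0.16 to 1.30) and C8g (0.51, −0.05 to 1.06). Cd93 rested on 64 UMIs in WT and 47 in CD169-DTR, and the free RNA estimate came to 20.8% of them. Itgam, a chain of complement receptor 3, stood at 579 and 615 CPM (−0.09).

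In macrophage-like cells 9 of the list had enough UMIs. None was past the fold in WT, 4 were in CD169-DTR and 5 in neither (6.99% and 21.4% of all genes were past the fold in WT and in CD169-DTR), with a median of −0.47 against −0.20 for all genes. The 4 were Itgax (−0.77), the second C5a receptor C5ar2 (−0.75), Lrp1 (−0.60) and Calr (−0.53). Lrp1 and calreticulin (Calr) act together in the uptake of C1q-coated cells. In the Gpnmb Ms4a7 cluster 0 of 9 were past the fold in either direction.

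Finally, WT macrophage-like cells with and without a Siglec1 UMI were compared after thinning (199 and 833 cells), to see which complement genes went with the CD169 message. Of the 9 genes, 5 were past the fold, all higher in the cells with Siglec1, where 27.0% of genes tested were past the fold. Cfb stood at 142 CPM with and 62.2 CPM without Siglec1 (log2 ratio 1.19, 0.87 to 1.51). C1qa, C1qb and C1qc had 0.52, 0.73 and 0.74, and C3ar1 had 0.61. C3, Cfp, C5ar1 and C4b had 0.11, 0.08, −0.11 and 0.22. In CD169-DTR the same split had 38 and 311 cells and 8 of 9 past the fold, where 45.6% of genes tested were, with C3 (−0.99) the single gene lower in cells with Siglec1 and C5ar1 (0.31) within the fold. In WT, C1qa stood at 716 CPM with and 498 CPM without Siglec1, both below the 804 CPM of T-like cells, which were not thinned. C1qb stood at 1259 and 760 CPM (T-like 837 CPM) and C1qc at 635 and 379 CPM (T-like 594 CPM). Microglial markers were not compared between cells with and without Siglec1. In both libraries Cfb and the C1q chains were thus higher in macrophage-like cells in which Siglec1 was detected, with C1qa in WT below the T-like level. This did not extend to the Gpnmb Ms4a7 cluster. There Cfb had −0.18 in WT and −0.29 in CD169-DTR, with intervals that include 0, while C1qa, C1qb and C1qc had 0.25, 0.23 and 0.25 in WT and −0.46, −0.29 and −0.26 in CD169-DTR.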

How the data were processed

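The authors deposited UMI counts per gene and droplet barcode for all barcodes of both libraries, as raw counts that Cell Ranger 3.1.0 made (per the file headers) on mm10 (per the labels), without normalization. They hold 101808996 (WT) and 84065489 (CD169-DTR) UMIs. The study kept cells with at least 200 counts and at most 17% mitochondrial counts. Here barcodes needed 1000 UMIs or more, with no more than 17% of them mitochondrial. Doublets were not removed, since no such step is stated. Counts were log-normalised to 10000 per cell, integrated on 50 dimensions from 2000 variable features, which left out the complement genes, and clustered on 30 dimensions at resolution 1 (R 4.3.3 with Matrix 1.6.5, Seurat 5.3.0 and SeuratObject 5.2.0). Later steps used scanpy 1.11.5 for doublet scores, scipy 1.17.1, numpy 2.4.6, pandas 2.3.3 and matplotlib 3.10.9 on python 3.11.15. Counting and ratios were tested on simulated data.

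A class name needed 3 detected markers and 50 cells. A marker counted as detected at 25% or more of its level in the highest cluster. UMIs were summed per class and library, and genes with at least 20 UMIs were compared. With 1 library a group, from 3 pooled mice, there was no test. Cells were thinned to 4500 UMIs for shares. The amount of free RNA came from 10 microglial markers in lymphocytes, without the 10% of lymphocytes that held most, and its profile from barcodes of 10 to 100 UMIs. Of a share at 0, counting error allows up to 3 counts of the total.

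The genes named are the 9 complement genes, the genes of a complement list with at least 100 UMIs (counted by role, with the 2 largest ratios per role), the 3 genes most like C1qa, C3, C4b, C3ar1, Cfb and Cfp each among those with at least 500 UMIs, and genes that lead a cluster. The members and lists were chosen with earlier results of these data known. The split at 10 C1q UMIs, the limit of 15 marker UMIs and the 10% of lymphocytes left out were chosen after values were seen. Apoe, Ms4a7, Cd209a, Flt3, Cd93, C8g, Lrp1, Calr and Itgam were named after their values were seen. So were Adgre1, Ccr2, Ly6c2, Mrc1 and H2-Aa in the split of DC-like cells. Promoters came from RefSeq (GRCm38.p6). C4a and Clec7a were not analysed here, and 1 gene of the complement list is not reported here.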

Additional observations from a re-analysis of the deposited data

Results flagged for a closer look

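C4b is singled out because its difference between the groups had opposite signs in 2 classes. In microglia-like cells its log2 ratio, WT over CD169-DTR, was 0.66 (0.60 to 0.71), at 136 CPM in WT and 86.3 CPM in CD169-DTR, and −1.54 (−1.99 to −1.09) in macrophage-like cells, at 7.45 and 21.7 CPM. The difference between these ratios was not tested, since each group has 1 library. The macrophage-like values rest on 80 and 92 UMIs, and T-like cells had 9.26 and 3.76 CPM of C4b.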

How the results depend on the processing

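No paired analysis was possible because each group has 1 library, and for the same reason no replicate could be left out. Of 216 log2 ratios under the alternatives, 145 moved by less than their counting error, 71 moved by more, and 0 of those past the fold changed sign. In microglia-like cells 3 to 4 genes were past the fold over 11 alternatives. C4b ranged from 0.55 to 0.72, C3 from 0.91 to 0.99 and Cfb from 0.77 to 0.94, and Cfp passed the fold with free RNA subtracted (−0.92). In macrophage-like cells the count of 5 became 3 with libraries merged without integration and 3 with median-ratio scaling, and ranged from 3 to 6 over 13 alternatives, among them the Gpnmb Ms4a7 cluster counted in, which was added after the data were seen. C5ar1 (−1.23 to −0.69) and C4b (−2.11 to −0.66) were past the fold in 13 of 13, C1qa and C1qc in 11, Cfb in 9 and C1qb in 7. The ratio of C3 there ranged from −0.15 to 0.33, so it has no firm direction. Cluster settings moved the highest class of Cfb to macrophage-like cells in 3 alternatives, of Cfp to pDC-like cells in 2 and of C3ar1 to microglia-like cells at resolution 0.5. All 9 genes varied among states in 9 of 9 alternatives. Thinning to 2000 UMIs left 5 genes past the fold with Siglec1. The cause of these moves was not tested. Depth limits the genes of low level, such as C3, with a UMI in 7.05% and 4.07% of microglia-like cells.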

Other observations

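Among cells that were given no class, a cluster of 23 cells had the highest C4b of any cluster described here. It stood at 289 CPM in WT (157 UMIs in 10 cells) and 349 CPM in CD169-DTR (307 UMIs in 13 cells). The leading genes of this cluster were mixed, with Serpina3n, Col9a2, Moxd1, Olig1 and Col2a1 among them, and its median cell held 60260 UMIs. In B-like cells Cfb came to 21 UMIs in WT, 8 of them in 1 cell, and 1 in CD169-DTR. Markers of monocyte-derived macrophages summed to 3713 and 1042 CPM in these cells, with 12 of 12 higher in WT, and their part was not tested. In choroid plexus-like cells C4b came to 59 UMIs in WT, 30 of them in 1 cell, and 7 in CD169-DTR, 5 of them in 1 cell. These values rest on few cells of 1 library each.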
